A study of Mus musculus with 18 samples.

Results

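The genes that supply active TGF-β1 were followed in sorted cells of mouse livers carrying colorectal cancer metastases. The 10 genes were listed by symbol for their role in the supply of the ligand, and all 10 were found among the 13759 genes of the macrophage table and the 54309 genes of the lymphocyte table. They encode the ligand (Tgfb1), the protease that cleaves its precursor (Furin), the proteins that hold or display the latent complex (Ltbp1, Ltbp3, Nrros and Lrrc32), integrin subunits that bind it (Itgav, Itgb5 and Itgb8) and a secreted activator (Thbs1).

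Liver metastases (LM) were induced in female C57BL/6J mice by injecting MC38 cells, a mouse colon adenocarcinoma line, into the spleen. Every group came from such tumor-bearing mice, and the livers had no genetic change or drug treatment. Metastasis-associated macrophages (MAMs), gated as lineage-negative CD45+CD11b+ cells of LM, were split into F4/80high and F4/80low cells (3 libraries each), the latter called F4/80int by the study. Lymphocytes were sorted as NKp46+ cells from pools of 6 to 8 metastasis-free liver (MFL) or LM samples, and 3 libraries were made of each population. In MFL these were NK cells, which carry CD49b and not CD49a, and ILC1, which carry CD49a and not CD49b. In LM they were CD49a- NK cells, with CD49b alone, and CD49a+ NK cells, with both markers. Enzymatic digestion was used for LM but only mechanical disruption for MFL, so that site and dissociation cannot be told apart. Total counts ranged from 21278959 to 32267015 in the MAM libraries, which were made from poly(A) RNA, and from 8795721 to 14386834 in the lymphocyte libraries, which were made from total RNA. Levels are CPM, counts scaled to a common library size, after TMM scaling. The 2 tables were prepared separately, so comparisons were made only within each of them, and p-values measure the spread between these libraries. The study collected the lymphocytes in 3 independent sorts, whereas nothing ties the MAM libraries to separate pools of animals.

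TGF-β1 is made as a precursor that furin cleaves into the mature cytokine and the latency-associated peptide. Both parts stay bound together, so that the secreted cytokine is inactive. Latent TGF-β binding proteins, encoded by the Ltbp genes, tether the complex to the extracellular matrix, whereas GARP (Lrrc32) and NRROS (Nrros, also known as LRRC33) display it on the surface of cells, NRROS chiefly on myeloid cells. Integrins that contain the αV subunit release the cytokine by binding the peptide, and thrombospondin-1 (Thbs1) can release it by contacting the peptide at another site.

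The stretches of the Tgfb1 coding sequence that these other genes' products act on are shown, since they place the members on one molecule. Tgfb1 (ENSMUSG00000002603.16) lies on the plus strand of chromosome 7 of GRCm39 from 25386390 to 25404506, and the coding sequence of its transcript Tgfb1-201 holds 390 codons. Capitals mark the codons of the named site, each read 5′ to 3′ from the genome.
Thrombospondin-1 contact, codons 54 to 57, exon 1, chr7:25387432-25387485: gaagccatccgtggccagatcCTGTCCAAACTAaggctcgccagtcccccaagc
αV integrin (RGD) motif, codons 244 to 246, exon 5, chr7:25396550-25396596: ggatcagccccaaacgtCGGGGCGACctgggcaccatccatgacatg
Furin cleavage site, codons 275 to 278, exon 5, chr7:25396639-25396692: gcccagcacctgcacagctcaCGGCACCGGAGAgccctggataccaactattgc
The first 2 sites lie in the latency-associated peptide, and the furin site is the boundary between that peptide and the mature cytokine.

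In MAMs, the ligand and the secreted activator were lower in the F4/80high subset, and a tethering protein and the αVβ5 subunits were higher. With edgeR's quasi-likelihood test and an adjusted p under 0.1, the 6 members called were Ltbp1, Itgb5 and Itgav, which were higher in F4/80high MAMs, and Tgfb1, Thbs1 and Furin, which were lower. Of all 13759 genes tested, 54.9% were called, 27.8% higher and 27.1% lower, so that 6 of 10 is near the share of all genes. The median log2 fold change was −0.10 over the members and 0.014 over all genes tested. Scaled by total counts in place of TMM, the median of all genes was 0.16 and the share of calls that were higher was 64.9% in place of 50.6%, and the same 6 members were called in the same directions. As the cells were measured in bulk, fewer cells of a type and less RNA per cell cannot be told apart.

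Levels per length of exons placed the members in a wide range. In F4/80low MAMs the order was led by Thbs1 (286 ± 136 CPM per kb, SD, n = 3), Tgfb1 (136 ± 7.88) and Itgb5 (65.9 ± 11.2), followed by Nrros (42.3 ± 3.76) and Furin (40.9 ± 5.78), whose libraries overlapped. In F4/80high MAMs Itgb5 stood first (106 ± 7.14), before Tgfb1 (85.9 ± 2.31), and Thbs1 came next (50.1 ± 18.6), with libraries that overlapped those of Nrros (38.0 ± 1.95). Itgav and Ltbp3 lay in the middle in both subsets, at 13.8 ± 0.682 and 6.55 ± 1.25 CPM per kb in F4/80high MAMs. Ltbp1, Lrrc32 and Itgb8 were the 3 lowest in both. Length is the union of all annotated exons of a gene, which overstates the length of genes with retained-intron transcripts, such as Tgfb1.

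**Figure D1:**
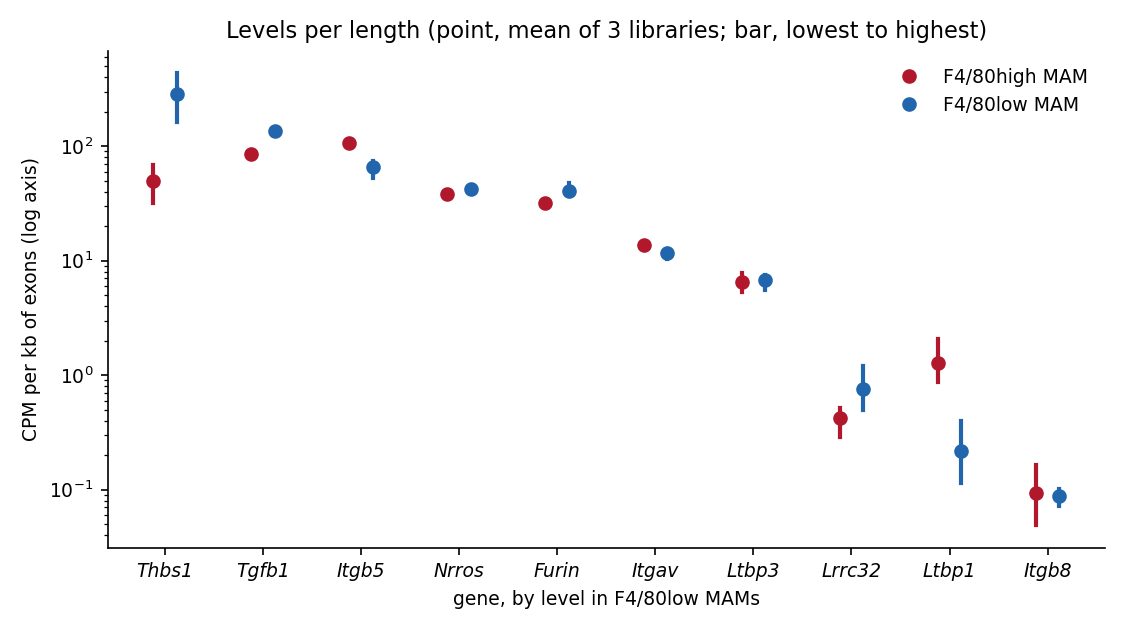
Level of each gene in CPM per kb of exons (log axis), with genes ordered by their level in F4/80low MAMs, for F4/80high (red) and F4/80low (blue) MAMs. Points are means of 3 libraries and bars run from the lowest to the highest library. Thbs1 moves from first place in F4/80low MAMs to below Itgb5 and Tgfb1 in F4/80high MAMs.

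The ligand gene was expressed at 436, 425 and 448.5 CPM in F4/80high replicates 1, 2 and 3, and at 651.5, 688 and 731.5 CPM in the F4/80low replicates. Each F4/80low library was above each F4/80high library. The log2 fold change of Tgfb1, F4/80high minus F4/80low, was −0.66 (standard error 0.085, edgeR adjusted p = 0.000398), a level 1.58-fold lower. Over 12 alternative fits it lay between −0.71 and −0.51 and was called in each.

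Furin, on the minus strand of chromosome 7 (ENSMUSG00000030530.16, 80038333 to 80055184), was measured at 333, 319.7 and 319 CPM in F4/80high MAMs. The F4/80low libraries held 396, 376 and 487 CPM. The groups did not overlap, and Furin was 1.30-fold lower in F4/80high MAMs (log2 fold change −0.37, standard error 0.110, adjusted p = 0.0232). Of the other 5 proprotein convertases listed, 3 were in the table, and Pcsk4 was the 1 called, at a mean of 0.902 against 0.416 CPM with overlapping libraries (log2 fold change 1.09, standard error 0.431, adjusted p = 0.0676). It is named after its values were seen.

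Among the proteins that hold the latent complex, Ltbp1 (ENSMUSG00000001870.17, chromosome 17, 75312519 to 75699507, plus strand) was the member with the largest fold. It stood at 9.32, 22.1 and 9.83 CPM in the F4/80high libraries and at 4.24, 1.23 and 1.56 CPM in the F4/80low libraries. The groups did not overlap, and F4/80high replicate 2 was more than 2 times the other F4/80high libraries. The log2 fold change was 2.54 (standard error 0.51, adjusted p = 0.0041), a level 5.82-fold higher. Without F4/80low replicate 1 the log2 fold change was 3.30, and without F4/80high replicate 2 it was 2.02.

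Stellate cell and fibroblast markers moved with Ltbp1. The 5 listed markers found in the MAM table (Col1a1, Col1a2, Col3a1, Dcn and Pdgfrb) summed to 258, 556 and 311 CPM in F4/80high replicates 1, 2 and 3 and to 151, 43.4 and 94.1 CPM in the F4/80low replicates. Of these 5, 4 were higher in F4/80high MAMs, as were 27.8% of all genes tested, and Col1a1 was not called. The library with the most Ltbp1 in each subset, F4/80high replicate 2 and F4/80low replicate 1, was also the one with the most of these markers. None of the 5 markers was at 0, and Lrat, Reln and Lum were not analysed in MAMs. Their part in the difference of Ltbp1 was not tested.

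**Figure D2:**
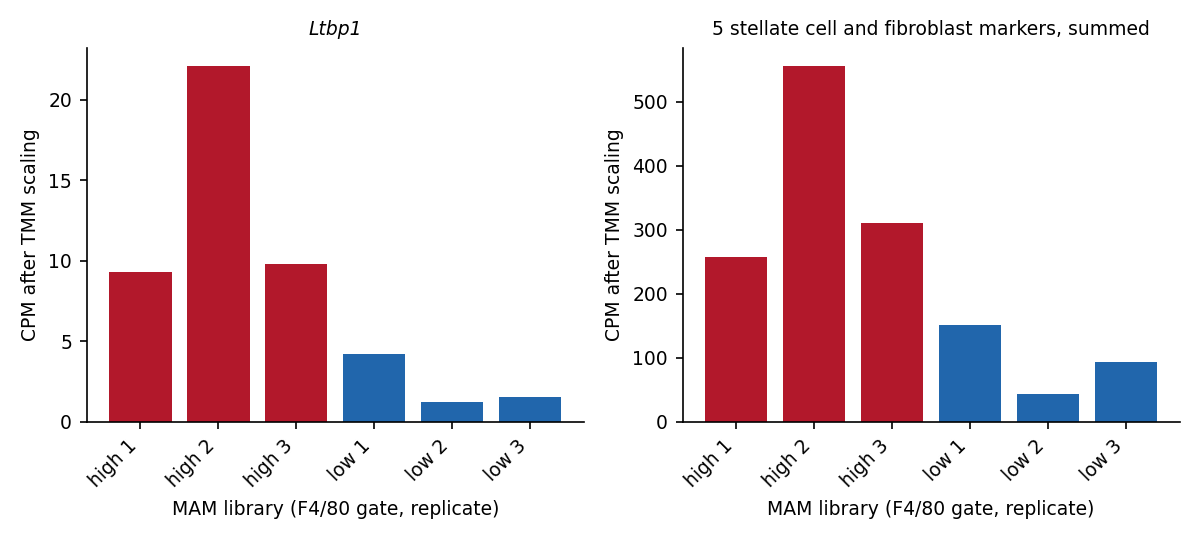
Ltbp1 (left) and the sum of 5 stellate cell and fibroblast markers (right) in CPM after TMM scaling, in each F4/80high (red) and F4/80low (blue) MAM library. F4/80high replicate 2 has the highest bar in both panels, at 22.1 and 556 CPM.

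The other members that hold the latent complex were not called. Ltbp3 (ENSMUSG00000024940.12, chromosome 19, 5790932 to 5808669, plus strand) lay at 50.2, 60.65 and 73.6 CPM in F4/80high MAMs and at 69.1, 51.8 and 71.05 CPM in F4/80low MAMs. The groups overlapped, and the log2 fold change, −0.056, was smaller than its standard error of 0.16 (adjusted p = 0.803). Nrros (ENSMUSG00000052384.15, chromosome 16, 31960320 to 31984521, minus strand) was measured at 275, 289 and 305 CPM in F4/80high MAMs and at 295, 352 and 319.6 CPM in F4/80low MAMs. These also overlapped, the log2 fold change being −0.15 with a standard error of 0.094 (adjusted p = 0.218). By level per length, Nrros was the main one of the 2 genes for cell-surface display, as Lrrc32 held 0.421 ± 0.115 CPM per kb against 38.0 ± 1.95 for Nrros in F4/80high MAMs.

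Lrrc32 (ENSMUSG00000090958.3, chromosome 7, 98138490 to 98151388, plus strand) stood at 2.43, 1.38 and 2.17 CPM in F4/80high libraries and at 5.65, 2.36 and 2.72 CPM in F4/80low libraries. The highest F4/80high library was just above the lowest F4/80low library. The log2 fold change was −0.85 (standard error 0.386) and narrowly missed the threshold (adjusted p = 0.105). It passed in 5 of the 12 alternative fits, among them those without F4/80low replicate 2 (adjusted p = 0.0609) or replicate 3 (adjusted p = 0.096), with adjusted p-values from 0.0568 to 0.433 over all 12.

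The subunits of integrin αVβ5 were both higher in F4/80high MAMs. Itgb5 (ENSMUSG00000022817.16, chromosome 16, 33649988 to 33771137, plus strand) was measured at 732, 706 and 803.5 CPM in F4/80high libraries and at 375.5, 496 and 524.5 CPM in F4/80low libraries. Each F4/80high library exceeded each F4/80low library, and the level was 1.60-fold higher (log2 fold change 0.68, standard error 0.134, adjusted p = 0.00349). Itgav (ENSMUSG00000027087.12, chromosome 2, 83554403 to 83637260, plus strand), which encodes the αV subunit of all αV integrins, was measured at 169, 163 and 179.8 CPM against 126.5, 157 and 147 CPM. The groups did not overlap, but the difference was small (1.19-fold, log2 fold change 0.25, standard error 0.0985, adjusted p = 0.0673). The call of Itgav was lost without F4/80high replicate 1 (adjusted p = 0.137), F4/80high replicate 3 (0.173), F4/80low replicate 1 (0.255) or F4/80low replicate 3 (0.125).

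Itgb8 (ENSMUSG00000025321.15, chromosome 12, 119121748 to 119202584, minus strand), the β subunit of αVβ8, had the lowest level per length of the members in MAMs, with 17 to 52 counts per library. It stood at 0.765, 1.84 and 0.551 CPM in F4/80high and at 1.15, 0.82 and 1.04 CPM in F4/80low libraries, which overlapped (log2 fold change 0.074, standard error 0.47, adjusted p = 0.911). Itgb3, the β subunit of αVβ3, came from the fixed list of other activators. It stood at 0.856, 2.09 and 1.17 CPM in F4/80high and at 11.0, 8.54 and 10.1 CPM in F4/80low MAMs, a level 7.13-fold lower in F4/80high MAMs (log2 fold change −2.83, standard error 0.31, adjusted p = 0.000164). The β subunits of αV integrins thus differed in direction, Itgb5 being higher and Itgb3 lower in F4/80high MAMs.

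Thbs1 (ENSMUSG00000040152.9, chromosome 2, 117941974 to 117957616, plus strand) was the member with the largest difference in level. F4/80high libraries held 447, 207 and 317 CPM, and F4/80low libraries held 1702, 1054 and 2793 CPM. The lowest F4/80low library was above every F4/80high library, although both subsets varied more than 2-fold within themselves. Thbs1 was 5.72-fold lower in F4/80high MAMs (log2 fold change −2.52 with a standard error of 0.386, adjusted p = 0.00101) and was called in each of 12 alternative fits, with log2 fold changes from −2.82 to −2.09. Of 10 listed platelet genes, 7 were not analysed in MAMs, and Ppbp, Itga2b and Treml1 summed to 1.70 to 2.61 CPM in F4/80high and to 1.95 to 4.203 CPM in F4/80low libraries, with 1 called higher and 1 lower. Itga2b lay at 0.283 to 0.584 CPM in F4/80high and at 1.20 to 3.05 CPM in F4/80low MAMs, in the direction of Thbs1. Treml1 went the other way, at 0.6023 to 1.396 CPM in F4/80high and 0.2391 to 0.5621 CPM in F4/80low MAMs. The libraries of Ppbp overlapped, at 0.8148 to 0.9405 CPM in F4/80high and 0.5123 to 1.73 CPM in F4/80low MAMs. The part of platelets was not tested.

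**Figure D3:**
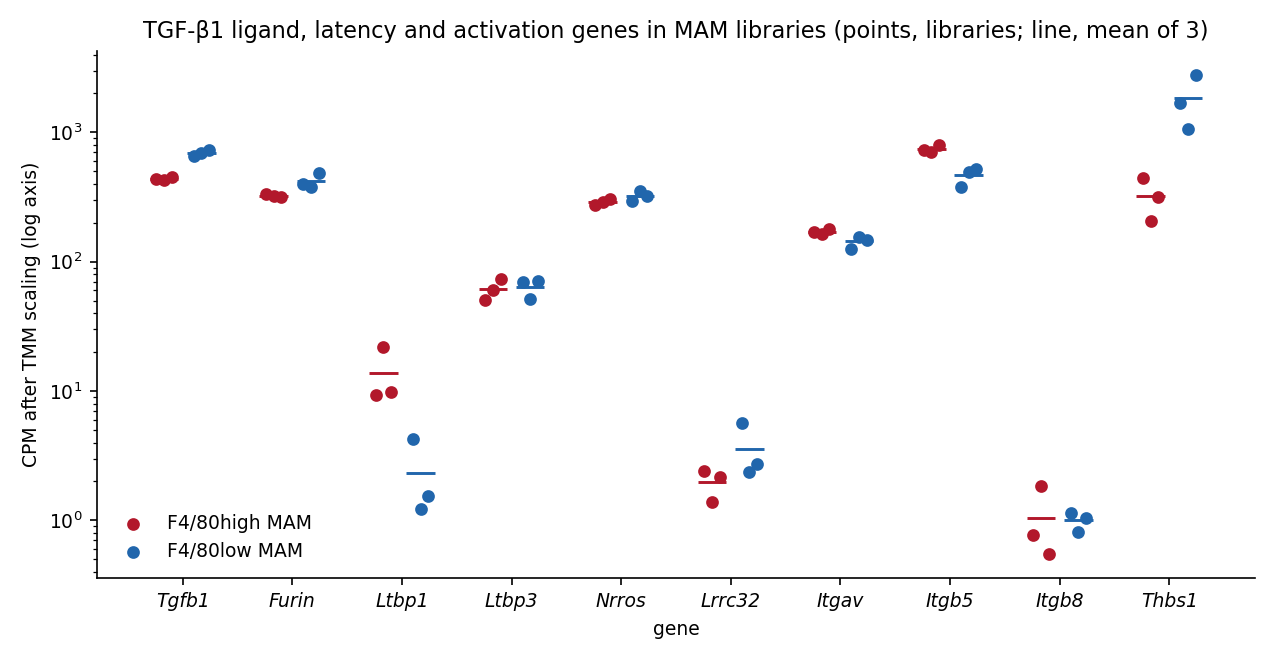
CPM after TMM scaling (log axis) of the 10 genes in each F4/80high (red) and F4/80low (blue) MAM library, with lines at the mean of 3 libraries. The libraries of Tgfb1, Furin, Ltbp1, Itgav, Itgb5 and Thbs1 do not overlap between the subsets, and those of Ltbp3, Nrros, Lrrc32 and Itgb8 do. Of all genes tested, 54.9% were called, and the share without overlap was not counted.

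Markers of other cell types also differed between the subsets, where 54.9% of all genes tested were called, 27.8% higher and 27.1% lower. The 10 macrophage markers, among them Adgre1, which encodes F4/80, summed to 18720 to 24240 CPM in F4/80high and 9832 to 12370 CPM in F4/80low MAMs. Of 8 classical monocyte markers, 7 were lower and F13a1 was higher in F4/80high MAMs, with sums of 954 to 1229 CPM against 2358 to 2747 CPM. Of 8 dendritic cell markers, 7 were lower in F4/80high MAMs, with sums of 47.7 to 70.7 CPM against 907 to 1720 CPM, and none was at 0. Of 7 listed tumor epithelium markers, 5 were not analysed in MAMs, and the other 2, Cdh1 and Epcam, were lower in F4/80high MAMs (8.30 to 11.8 CPM against 197 to 281 CPM summed). In the separately prepared lymphocyte libraries, MFL ILC1 also held Cdh1 at 46.0 to 74.7 CPM and Epcam at 12.4 to 20.5 CPM. Which cells supplied these 2 genes in the MAM libraries was not tested. Krt8, Krt18 and Krt19 were at or below 0.0732 CPM in MFL ILC1. Of the neutrophil markers 5 of 6 tested were lower, of the NK cell and ILC1 markers 5 of 6 and of the endothelial markers 3 of 5 (with 1 higher), at summed levels of up to 178, 48.0 and 44.7 CPM. The macrophage list had 7 of 10 genes higher, and the Kupffer cell list had 4 of 6 higher and 1 lower, with sums of 70.9 to 100.7 CPM in F4/80high against 12.6 to 19.2 CPM in F4/80low MAMs. Folr2 made up most of the F4/80high sums, at 55.05 to 94.0 CPM, whereas Vsig4, Cd5l and Marco lay at 0.681 to 7.19 CPM there. Clec4f was not called, and the lower gene was Timd4, at 0.09 to 0.519 CPM in F4/80high against 7.29 to 9.21 CPM in F4/80low MAMs. The monocyte, dendritic cell, neutrophil, NK cell and ILC1 and endothelial lists and the pair of tumor epithelium genes thus moved mostly in the direction of Tgfb1, Thbs1 and Furin, and the macrophage and Kupffer cell lists in that of Itgb5 and Itgav, and their part in those differences was not tested.

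**Figure D4:**
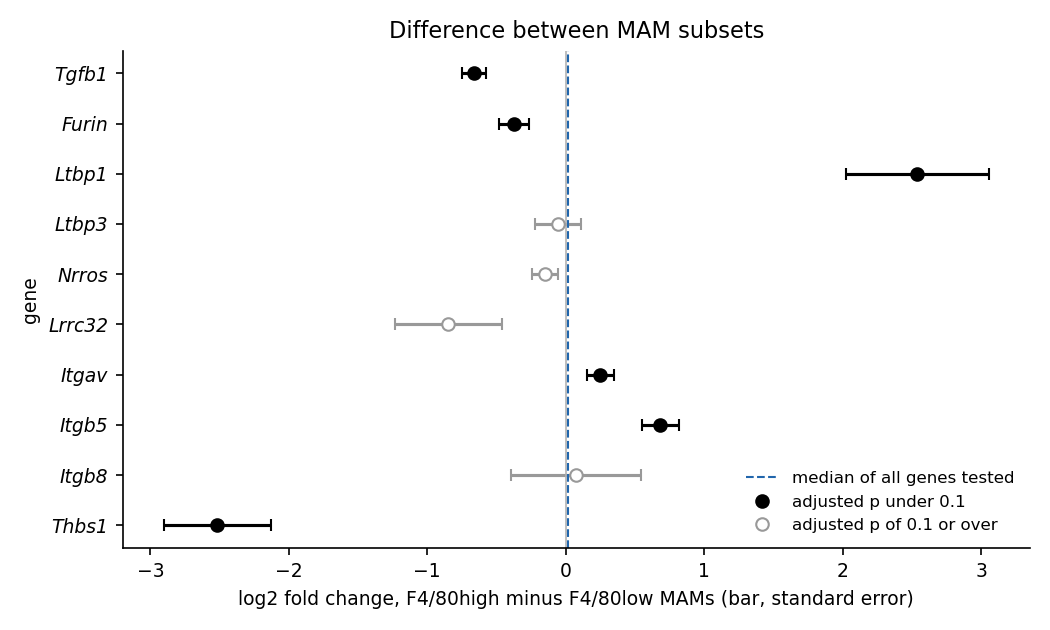
Log2 fold change of each gene, F4/80high minus F4/80low MAMs, with its standard error. Filled points had an adjusted p under 0.1 in edgeR's quasi-likelihood test, and the dashed line is the median of all genes tested (0.014). Ltbp1 at 2.54 and Thbs1 at −2.52 stand farthest from it, on opposite sides.

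The other genes of the pathway were also mixed in direction, in a comparison where 54.9% of all genes tested were called, 27.8% higher and 27.1% lower. Of 14 other ligands and latency proteins, 10 were in the MAM table, of which 5 were higher and 3 lower in F4/80high MAMs (median log2 fold change 0.79). Emilin1, which encodes a matrix protein that restrains processing of the TGF-β precursor, was measured at 169, 177.5 and 196 CPM against 53.3, 62.1 and 69.0 CPM (log2 fold change 1.56, standard error 0.113). Fbn1, encoding the fibrillin to which LTBPs bind, was also higher (log2 fold change 1.74, standard error 0.22), and so were Dcn, encoding the TGF-β-binding proteoglycan decorin (1.64, 0.497), and Ltbp4 (1.34, 0.49), whose call was lost without F4/80high replicate 2 (adjusted p = 0.168) or F4/80low replicate 3 (adjusted p = 0.122). Dcn and Ltbp4 were highest in F4/80high replicate 2, at 15.5 and 11.51 CPM, where the fibroblast markers, which include Dcn, were also highest. Without F4/80low replicate 1 their log2 fold changes were 2.34 and 2.03.

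Of 17 other activators, 14 were in the table, of which 8 were higher and 4 lower in F4/80high MAMs, against 27.8% and 27.1% of all genes. The 2 gelatinases that can cleave the latent complex moved in opposite directions. Mmp9 stood at 8.64, 6.84 and 11.1 CPM in F4/80high and at 427, 273 and 358 CPM in F4/80low MAMs (39.8-fold lower, log2 fold change −5.31, standard error 0.236). Mmp2 stood at 42.5, 62.7 and 55.8 CPM against 9.49, 3.48 and 5.10 CPM (8.86-fold higher, log2 fold change 3.15, standard error 0.328). Bmp1, a metalloproteinase that cleaves LTBP1, was also higher (log2 fold change 2.05, standard error 0.401), with its highest level, 20.9 CPM, in F4/80high replicate 2.

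On the side that responds to the ligand, 5 of 16 receptor and SMAD genes were higher and 6 lower in F4/80high MAMs, against 27.8% and 27.1% of all genes. Tgfbr2, encoding the ligand-binding receptor, was measured at 388, 349 and 556 CPM against 156, 185.5 and 170.2 CPM (2.53-fold higher, log2 fold change 1.34, standard error 0.172). The inhibitory Smad7 (−1.04, 0.122) and Smad6 (−0.78, 0.149) and the receptor anchor Zfyve9 (−1.61, 0.135) were lower, given as log2 fold change and standard error. Of 17 genes known to respond to TGF-β in various cells, 3 of which are also in the receptor and SMAD list, 12 were lower and 3 higher, against 27.1% and 27.8% of all genes (median log2 fold change of the 17, −0.56). Pmepa1, an inducible feedback inhibitor, was among those higher, at 441, 435 and 488 CPM against 110.1, 99.7 and 101 CPM (log2 fold change 2.13, standard error 0.0907). Itgae (−4.46, 0.439), Id3 (−2.49, 0.231) and Id1 (−1.68, 0.263) were among those lower. Itgae is also expressed by dendritic cells, whose markers were lower in F4/80high MAMs as well, and their part in the level of Itgae was not tested.

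The NK cell and ILC1 markers summed to 5375 to 10020 CPM in every lymphocyte library. Among these cells, 8 of the 10 members passed the filter on low counts, and Ltbp1 and Itgb8 did not. Tgfb1 set the LM populations apart from both MFL populations, and Itgav set MFL ILC1 apart from MFL NK and LM CD49a+ NK cells. The spread between libraries was wider in LM, with a median coefficient of variation of 50.0% in LM CD49a- and 34.5% in LM CD49a+ NK cells over the members with a mean of at least 5 CPM, against 12.8% in MFL NK cells and 15.1% in MFL ILC1. The 5 comparisons share groups and are not independent of each other. In simulated counts for LM CD49a+ against MFL NK cells, 5.16% of log2 changes of 1 were called. A member not called may thus still differ.

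MFL NK cells expressed Tgfb1 at 150.1, 183 and 170.2 CPM, and MFL ILC1 at 157, 186 and 149 CPM. In LM it was measured at 476, 305 and 759 CPM in CD49a- NK cells and at 409, 381 and 688.5 CPM in CD49a+ NK cells. Every LM library exceeded every MFL library, whereas the populations of one site overlapped. LM CD49a- NK cells were 3.06-fold above MFL NK cells (adjusted p = 0.0711 for a log2 fold change of 1.61 with a standard error of 0.302), and LM CD49a+ NK cells were 2.94-fold above MFL NK cells (1.56, standard error 0.302, adjusted p = 0.0262) and 3.01-fold above MFL ILC1 (1.59, standard error 0.302, adjusted p = 0.00691). Within a site, the log2 fold changes were −0.059 (standard error 0.295) for LM CD49a+ minus LM CD49a- NK cells and −0.033 (standard error 0.295) for MFL ILC1 minus MFL NK cells, and neither was called.

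Tgfb1 was the 1 member called between LM CD49a- and MFL NK cells, where 0.0736% of 13594 genes were called, and between LM CD49a+ and MFL NK cells, where 0.647% were. When LM CD49a+ NK cells were set against MFL ILC1, 2 members were called, Tgfb1 and Itgav, and 3.58% of all genes. The first call was lost without MFL NK replicate 1 (adjusted p = 0.485), 2 (0.281) or 3 (0.392) or LM CD49a- replicate 1 (0.191) and with the 2 groups fitted alone (0.409), and the second without MFL NK replicate 1 (0.171), 2 (0.102) or 3 (0.127) or LM CD49a+ replicate 3 (0.125). The third was kept without any 1 library. The 10 macrophage markers summed to 0, 25.7 and 6.22 CPM in LM CD49a- replicates 1, 2 and 3, to 0, 44.3 and 6.88 CPM in the LM CD49a+ replicates and to 4.33 to 11.8 CPM in MFL NK cells, and their part in the level of Tgfb1 was not tested.

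Itgav was highest in MFL ILC1, at 201, 225.5 and 182 CPM, and every MFL ILC1 library exceeded those of the other populations. In LM it stood at 179, 80.8 and 140.5 CPM in CD49a- and at 71.4, 97.5 and 94.1 CPM in CD49a+ NK cells, and MFL NK cells held 73.4, 109.7 and 102 CPM. Itgav was the 1 member called in MFL ILC1 against MFL NK cells (2.13-fold higher, adjusted p = 0.0536 for a log2 fold change of 1.09 with a standard error of 0.285), where 3.06% of all genes were called. The call was lost without any 1 of the 6 libraries, with adjusted p from 0.117 to 0.342. LM CD49a+ NK cells were 2.31-fold below MFL ILC1 (adjusted p = 0.0296 for a log2 fold change of −1.21 with a standard error of 0.286), a call lost without LM CD49a+ replicate 1 (adjusted p = 0.145) or MFL ILC1 replicate 2 (adjusted p = 0.138). Cd3g, 1 of 6 listed T cell markers, was also highest in MFL ILC1, at 224.5 to 667.9 CPM against 4.41 to 9.43 CPM in NK cells of MFL and 1.69 to 35.7 CPM in LM CD49a+ NK cells. The other 5 stayed at or below 6.28 CPM in MFL ILC1, where Cd3e lay between 0 and 0.366 CPM and Foxp3 was at 0, and the part of these genes in the level of Itgav was not tested.

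Of the β subunits that pair with αV, Itgb8 and Itgb5 were at or near 0 in lymphocytes. Itgb8 had 0 counts in each of the 12 libraries, which allows a level of up to 0.22 to 0.334 CPM depending on the library, for counting error only. Itgb5 lay between 0 and 7.67 CPM over the 12 libraries. Itgb3, from the list of other activators, was measured at 11.3, 19.0 and 15.6 CPM in NK cells of MFL, 93.6, 84.7 and 74.5 CPM in MFL ILC1, 73.8, 75.3 and 58.8 CPM in LM CD49a- NK cells and 206, 119 and 160 CPM in LM CD49a+ NK cells. Every library of the other populations was above those of MFL NK cells. The log2 fold changes against MFL NK cells were 2.46 (standard error 0.31, adjusted p = 9.8e-05) for MFL ILC1, 2.18 (standard error 0.308, adjusted p = 0.0116) for LM CD49a- NK cells and 3.40 (standard error 0.322, adjusted p = 4.3e-05) for LM CD49a+ NK cells. The second of these was lost without MFL NK replicate 1 (adjusted p = 0.18) or replicate 3 (adjusted p = 0.136) and with the 2 groups fitted alone (adjusted p = 0.339).

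MFL NK cells held Furin at 76.9, 98.5 and 94.4 CPM, and the level in MFL ILC1 was 161, 160.3 and 161.5 CPM in MFL ILC1, with no overlap. In LM it was measured at 169, 118 and 167 CPM in CD49a- and at 189, 93.55 and 183 CPM in CD49a+ NK cells. The log2 fold changes against MFL NK cells were 0.84 (standard error 0.27, adjusted p = 0.163) for MFL ILC1, 0.75 (standard error 0.27, adjusted p = 0.699) for LM CD49a- NK cells and 0.79 (standard error 0.27, adjusted p = 0.357) for LM CD49a+ NK cells, and none was called. The first was called when the 2 groups were fitted alone (adjusted p = 0.0102) or with limma-voom (0.000348) or DESeq2 (0.0538), and the third with DESeq2 (0.0977) or without LM CD49a+ replicate 2 (0.0773).

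MFL NK cells held Nrros at 60.2, 66.9 and 59.1 CPM, above the 28.2, 40.55 and 37.9 CPM of MFL ILC1. In LM it was measured at 84.45, 29.7 and 41.8 CPM in CD49a- and at 95.4, 90.3 and 67.0 CPM in CD49a+ NK cells. Every LM CD49a+ library exceeded every MFL ILC1 library, but the log2 fold change of 1.24 (standard error 0.38) was not called (adjusted p = 0.117), nor was that of MFL ILC1 minus MFL NK cells (−0.80, standard error 0.377, adjusted p = 0.582). With DESeq2 these adjusted p-values were 0.018 and 0.426, with limma-voom 0.0207 and 0.00635, and with the 2 groups fitted alone they were 0.0739 and 0.0585. Ltbp3 lay between 14.3 and 58.0 CPM over the 12 libraries, with overlap between every pair of neighbouring populations in the order of their means.

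**Figure D5:**
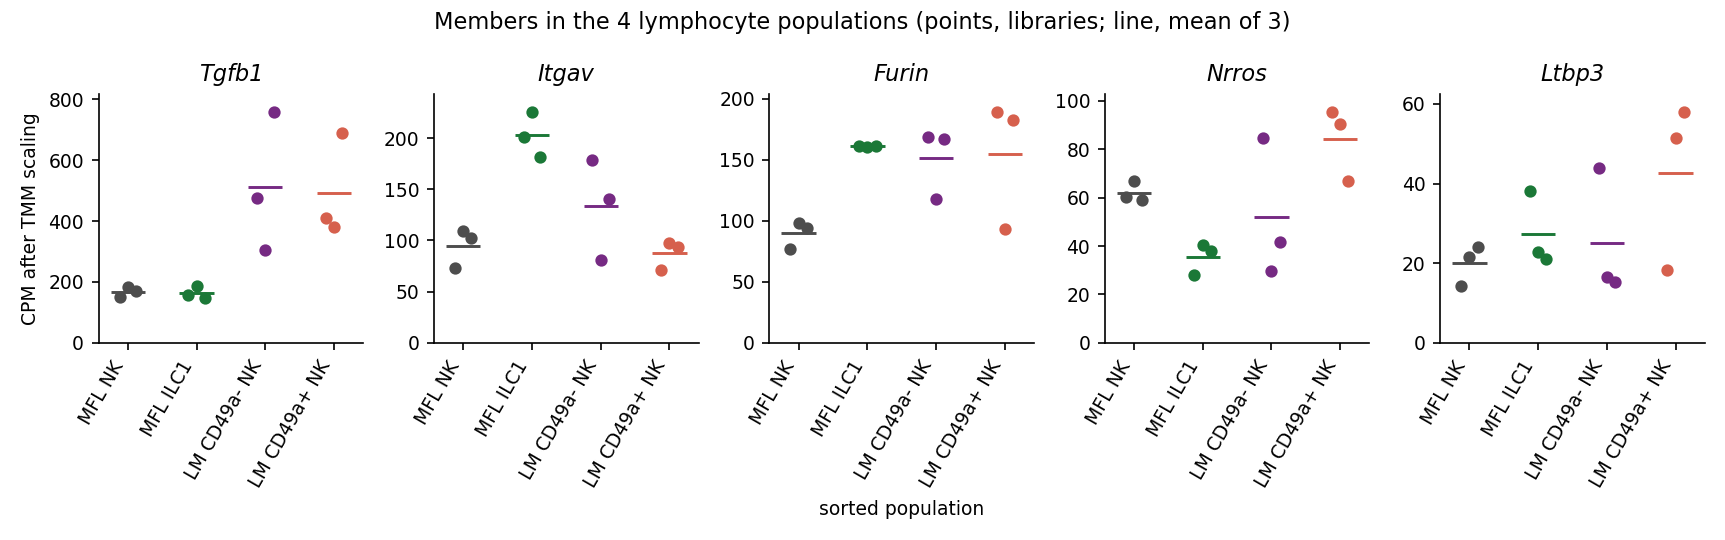
CPM after TMM scaling of Tgfb1, Itgav, Furin, Nrros and Ltbp3 in each library of the 4 lymphocyte populations, with lines at the mean of 3 libraries and axes from 0. Every LM library lies above every MFL library for Tgfb1, and MFL ILC1 lies above the other populations for Itgav.

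The remaining members were at 0 in at least 1 library and uneven between the libraries of a population. Lrrc32 lay between 0 and 4.07 CPM, with 0 in each MFL ILC1 library, and Thbs1 between 0 and 33.2 CPM, the highest values being those of MFL ILC1 replicate 2 (33.2 CPM) and LM CD49a+ replicate 2 (19.95 CPM). Macrophage markers were highest in the same 2 libraries, summing to 123 and 44.3 CPM, and their part in the level of Thbs1 was not tested. In MFL ILC1 replicate 2 most of that sum was Lyz2, at 85.2 CPM, and C1qa, C1qb, C1qc and Mertk were at or below 0.878 CPM. Ltbp1 had 305 counts (33.8 CPM) in LM CD49a- replicate 2, 15 counts (1.18 CPM) in replicate 3 and 0 in replicate 1, whereas every LM CD49a+ NK and MFL ILC1 library had 0, so that its level in LM CD49a- NK cells rests on 1 library. Of the 8 endothelial markers, Pecam1 stood at 259 CPM in that library, against 79.2 and 110.0 CPM in the other LM CD49a- libraries, and the other 7 were at 0 in all 3. Pecam1 also stood at 220.5 to 281 CPM in the LM CD49a+ libraries, which had 0 counts of Ltbp1. The 8 stellate cell and fibroblast markers summed to 48.2, 0 and 0.473 CPM in LM CD49a- replicates 1, 2 and 3. The part of either list in the counts of Ltbp1 was not tested.

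When the 2 NK populations of LM were compared with each other, no member was called by edgeR, where 0.14% of all genes were called and 1579 of 13594 had an unadjusted p under 0.05. Itgav was the 1 member among those tested with an unadjusted p under 0.05 there (adjusted p = 0.422 for a log2 fold change of −0.61 with a standard error of 0.283), and DESeq2 called Ltbp1 only, which had 305 counts in LM CD49a- replicate 2, 15 in replicate 3 and 0 in the other 4 libraries.

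Some genes of the other pathway lists were called in lymphocytes. For MFL ILC1 against MFL NK cells, with 3.06% of all genes called, these were 3 of 8 activators, 1 of 6 ligands and latency proteins and 1 of 13 receptor and SMAD genes tested. None of the 14 response genes was called there. For LM CD49a+ NK cells against MFL ILC1, with 3.58% of all genes called, the counts were 2 of 8, 1 of 6, 2 of 13 and 4 of 14. Smad7 and Skil are in both of the last 2 lists and were counted in each. Against MFL NK cells, MFL ILC1 had more Mmp9 (107, 149 and 155 CPM against 0, 0.442 and 0 CPM) and less Itgb1 (log2 fold change −1.12, standard error 0.229), Igf2r (−1.17, 0.237) and Smad3 (−1.03, 0.246), the last a call lost without replicate 2 or 3 of either group (adjusted p from 0.111 to 0.178). Against MFL ILC1, LM CD49a+ NK cells had more Itgb1, at 1057, 1155 and 1207 CPM against 306.5, 346 and 337 CPM (log2 fold change 1.79, standard error 0.233), and more Tgif1, a repressor induced by TGF-β, at 125, 68.5 and 468 CPM against 21.6, 13.4 and 16.2 CPM (log2 fold change 3.69, standard error 0.644, and 2.50 without LM CD49a+ replicate 3). Of the 14 response genes tested, 4 were higher in that comparison and none lower. Against MFL NK cells, 1 was higher in LM CD49a+ NK cells, where 0.647% of all genes were called. Pmepa1 was higher in LM CD49a+ NK cells than in both MFL populations, at 75.2, 60.7 and 97.45 CPM against 1.80, 9.14 and 3.45 CPM in the NK cells of MFL and 16.4, 9.08 and 7.86 CPM in its ILC1, with adjusted p of 0.0279 and 0.0606. The first call was lost without MFL NK replicate 1 (0.171) or 3 (0.188). Its log2 fold change of 4.02 was 4.88 without MFL NK replicate 2. The second call was lost without any 1 library other than LM CD49a+ replicate 2 (adjusted p from 0.123 to 0.242). Mean levels in LM CD49a- NK cells were 294 CPM of Tgif1, 937 CPM of Itgb1 and 40.6 CPM of Pmepa1. Those in LM CD49a+ NK cells were 221, 1140 and 77.8 CPM, and none of these genes was called between those populations. For LM CD49a- against MFL NK cells, where 0.0736% of all genes were called, none of the 14 response genes tested was called.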

How the data were processed

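Per the deposited files, the values are estimated counts per gene that the authors made with Salmon (version 1.10.0 for MAMs and 1.5.0 for lymphocytes, from the submitters' processing notes) and deposited unnormalized as whole numbers. The MAM table holds no gene with a total under 37 over its 6 libraries, so low genes were removed before deposit, whereas the lymphocyte table keeps genes at 0 in every library. Gene identifiers matched GRCm39 annotation for 13726 of 13759 MAM genes and 53700 of 54309 lymphocyte genes.

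Genes passing filterByExpr (13759 and 13594) were fitted with edgeR 4.0.16 in R 4.3.3 (TMM scaling, quasi-likelihood F-test, Benjamini-Hochberg adjustment over all genes, threshold 0.1), with the 4 lymphocyte groups in 1 fit. Standard errors are approximate, from the fold change and F. Scripts were tested on simulated data. In MAMs, 70.1% of simulated log2 changes of 1 and 99.4% of those of 3 were called. For LM CD49a+ against MFL NK cells these shares were 5.16% and 50.1%. Alternatives were RLE and total-count scaling, no filter, DESeq2 1.42.0, limma 3.58.1 voom with quality weights, a replicate block, the 2 groups alone, a threshold of 0.05 and leaving out each library. From each pathway list, up to 4 genes per comparison were named, those with the largest fold among called genes with a mean of at least 5 CPM over the groups compared and no overlap between them. Members and lists were chosen with earlier results of these data known. Intervals for 0 counts (3 counts) cover counting error only.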

Additional observations from a re-analysis of the deposited data

How the results depend on the processing

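Over 315 alternative values of 25 member results, 264 kept their direction and side of the threshold, 21 lost a call, 15 gained one and 15 changed sign. Over 400 values of 32 results of other named genes, 367 kept both and 33 lost a call. In MAMs, 5 to 7 members were called without 1 library and 6 to 7 under other settings, against 6.

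Between MFL ILC1 and MFL NK cells, where 1 member was called, DESeq2 called 2, limma-voom 3, the 2 groups alone 3, a threshold of 0.05 gave 0, and leaving out 1 library gave 0 to 0. Between the 2 NK populations of LM, DESeq2 called 1 against 0. Between LM CD49a- and MFL NK cells the 2 groups alone and a threshold of 0.05 gave 0 against 1, and leaving out 1 library gave 0 to 1. Between LM CD49a+ and MFL NK cells DESeq2 called 2 against 1, and leaving out 1 library gave 0 to 2. For LM CD49a+ NK cells against MFL ILC1, DESeq2, limma-voom and the 2 groups alone each called 3 against 2, adding Nrros, and leaving out 1 library gave 1 to 2. The causes were not tested.

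The sign changed for log2 fold changes near 0. In MAMs, Ltbp3 was 0.094 with total-count scaling and −0.21 to 0.069 without 1 library, and Itgb8 was −0.25 with limma-voom, −0.069 with the replicate block and −0.62 to 0.39 without 1 library. Tgfb1 between MFL ILC1 and MFL NK cells was 0.0049 with RLE scaling and with DESeq2 and −0.13 to 0.033 without 1 library, and between the 2 NK populations of LM it was 0.012 with total-count scaling and −0.38 to 0.33 without 1 library.

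Calls over all genes, over these alternatives, ranged from 268 to 2645 for MFL ILC1 against MFL NK cells (416 as reported), from 0 to 931 for LM CD49a+ against LM CD49a- NK cells (19), from 1 to 312 for LM CD49a- against MFL NK cells (10), from 26 to 596 for LM CD49a+ against MFL NK cells (88) and from 257 to 1358 for LM CD49a+ NK cells against MFL ILC1 (486).

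The deviations of same-numbered replicates correlated at 0.013 to 0.251 over 3 MAM pairs (−0.179 to 0.147 for different numbers) and at −0.094 to 0.061 over 18 lymphocyte pairs. As not every pair was over 0.1 and the labels do not say what a number marks, the replicates were not taken as paired. With the replicate block, 7 members were called in MAMs, Lrrc32 being added, and 1, 0, 1, 1 and 2 in the 5 lymphocyte comparisons, as without it.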
